A study of Mus musculus with 6 samples.

Results

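The perilipins Plin1, Plin2, Plin3, Plin4 and Plin5, the fatty acid binding proteins Fabp3, Fabp4, Fabp5 and Fabp7, and the droplet protein Cidec were followed as a set of 10 genes chosen by symbol, out of the 19938 genes that could be read singly on the array. A transcript cluster is a group of probes read together. All 10 genes had such a cluster, 8 of them 1 cluster and Fabp3 and Fabp5 2 clusters each, so that 12 clusters were read. No cluster shared with another gene carried a member's symbol.

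The cells were immortalized stromal vascular cells, the preadipocyte-containing fraction of fat, from inguinal white adipose tissue of male 129SVE mice. They had been stained with FcsFNDC4, the soluble part of FNDC4 fused to a human Fc, and sorted repeatedly for strong binding (high-binding cells, HBC) or weak binding (low-binding cells, LBC). Each group is 1 sorted population at passage 20, expanded in growth medium, and was read on 3 arrays labelled as technical replicates, so that a p-value here speaks of array-to-array spread and leaves the spread between separate sorts unmeasured. No condition with adipogenic induction is among the samples. The arrays were grouped by title, phenotype and description, since the source names of LBC replicates 2 and 3 carry the HBC wording.

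Perilipins coat the surface of lipid droplets, the organelles in which cells keep triglyceride, and control how lipases reach it. Plin2 and Plin3 are found in most cell types, whereas Plin1 and Plin4 are typical of fat storing cells and Plin5 of tissues that burn fat. Fatty acid binding proteins are small cytosolic carriers that hold fatty acids in a barrel-shaped pocket. Fabp4 is the major carrier of adipocytes, Fabp5 was first known from skin, Fabp3 from heart and muscle and Fabp7 from brain. Cidec promotes the fusion of droplets in white adipocytes. Several of these genes are known targets of PPARγ, the nuclear receptor that drives adipocyte differentiation.

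The deposited intensities are linear values, with medians over all clusters between 122 and 135 on the 6 arrays. HBC and LBC were compared with limma on log2(intensity + 16), and a gene was called where it passed 0.05 after Benjamini-Hochberg adjustment and differed by more than 1.5-fold. The added 16 makes the fold changes of dim genes smaller, so ratios of mean intensities are given as well. LBC replicate 3 had the highest mean intensity over all clusters, at 547 against 471 to 514 on the other arrays, and it was the highest LBC array for 7 of the 10 members, where the same held for 50.1% of all genes. Olfactory receptor genes served as a reference for dim signal, with a range of 13.8 to 83.7 from the 10th to the 90th percentile over 1027 genes. Intensities of different clusters are not on a common scale, so levels are compared between groups and not between genes.

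The progenitor genes Pdgfra and Pdgfrb, which encode receptors for platelet-derived growth factors, read 4096 and 2699 in HBC and 3167 and 1874 in LBC. Their log2 fold changes of 0.37 and 0.53 passed on p (limma, adjusted p = 0.0029 and 4.8e-05). Both missed the fold, so neither was called. The progenitor list did not move one way: of 14 markers measured, the collagen gene Col3a1 was called higher (2968 in HBC and 1696 in LBC, log2 fold change of 0.80), the proteoglycan gene Dcn was called lower (2933.5 and 5049, log2 fold change of -0.78) and 12 were not called, with a median log2 fold change of -0.03. Cd34, a surface marker of these cells, read 134 in HBC and 189 in LBC. Its log2 fold change of -0.45 also passed on p without being called (limma, adjusted p = 0.00019). Of the 14 markers, 10 lay above the dim range in at least 1 group, while Dpp4, Pi16, Cd24a and Lum lay within it in both. The defining transcripts of mature adipocytes, Adipoq and Lep, lay within the dim range, at 43.0 and 40.8 in HBC and 40.7 and 46.1 in LBC. Retn, which encodes the adipocyte hormone resistin in mice, lay above the dim range in both groups, with an HBC mean of 187 ± 5.36 (SD, n = 3) and an LBC mean of 120.3 ± 11.4 (SD, n = 3). Its log2 fold change of 0.58 passed on p and just missed the call (limma, adjusted p = 7.9e-06).

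Plin4 rose and Fabp5 fell in HBC, and the other 8 members were not called. This is 1 member higher and 1 lower, read beside 3.67% of all genes called in either direction, 2.54% called higher and 1.13% called lower. Without the fold threshold, 4 members passed (Plin4 and Fabp4 higher, Fabp5 and Fabp7 lower) beside 18.3% of all genes. The 3 HBC arrays did not overlap the 3 LBC arrays for 5 members, the same 4 and Fabp3, and for 35.2% of all genes. The median log2 fold change of the 10 members was -0.05, and that of all genes -0.07. In bulk samples such as these, fewer cells of a type and less RNA per cell cannot be told apart.

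**Figure D1:**
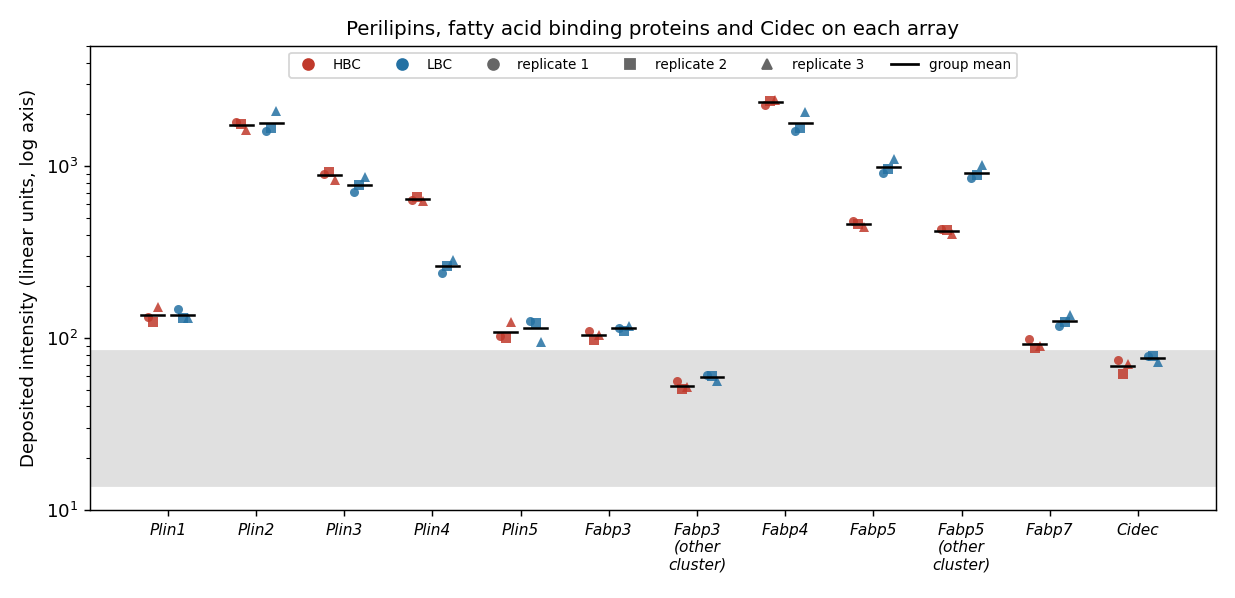
Deposited intensity (linear units on a log axis) on each of 3 HBC arrays (red) and 3 LBC arrays (blue) for the 12 transcript clusters of the members, with black lines at the group means and a grey band for the 10th to 90th percentile of olfactory receptor genes. Plin4 lies higher in HBC and both Fabp5 clusters lie lower, while the groups overlap for Plin1, Plin2, Plin3, Plin5 and Cidec.

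Among the perilipins, Plin4, which coats small and newly formed droplets, was the member that rose. It read 633, 657 and 629 on the HBC arrays and 239, 263 and 283 on the LBC arrays. Every HBC array was thus well above every LBC array, and the spread within each group was small beside the gap. Mean intensity was 639.7 ± 15.1 (SD, n = 3 arrays) in HBC against 261 ± 22.1 (SD, n = 3) in LBC, or 2.45 times as high. The log2 fold change was 1.24 (standard error 0.087, 95% interval 1.07 to 1.42, limma, adjusted p = 1.2e-12), which was the 174th highest of the 19938 genes.

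The other perilipins were not called. Plin2, the ubiquitous perilipin that follows the lipid load of a cell, read 1813, 1767.5 and 1629 in HBC and 1599, 1669 and 2104 in LBC. The groups overlapped and LBC replicate 3 alone lay far above the other LBC arrays, so that the LBC mean of 1791 ± 274 (SD, n = 3) spread more widely than the HBC mean of 1737 ± 95.7 (SD, n = 3). Its log2 fold change was -0.03 (95% interval -0.23 to 0.16, limma, adjusted p = 0.84), and without LBC replicate 3 it was 0.09 (limma, adjusted p = 0.36).

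Plin3, the other ubiquitous perilipin, which moves between cytosol and droplet, read 898, 929 and 834 in HBC and 709, 774 and 859 in LBC. The highest LBC array lay above the lowest HBC array. The log2 fold change was 0.18 (unadjusted 95% interval 0.0017 to 0.37, limma, adjusted p = 0.16). Without the fold threshold it passed the test after quantile normalization (0.20, limma, adjusted p = 0.0054) and after cyclic loess normalization (0.25, limma, adjusted p = 0.0025). Those scalings were planned, while reading them without a fold threshold was added after the data were seen. Without LBC replicate 3 the log2 fold change of Plin3 was 0.25 (limma, adjusted p = 0.021). Over all runs leaving out an array, the adjusted p from limma reached 0.47.

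Plin1, the gatekeeper of lipolysis in adipocytes, read 132, 124 and 152 in HBC and 148, 131 and 130.4 in LBC. The groups were interleaved, with an HBC mean of 136 ± 14.3 (SD, n = 3) and an LBC mean of 137 ± 10.3 (SD, n = 3). Plin5, which links droplets to mitochondria, read 103, 99.7 and 124 in HBC and 126, 123 and 95.1 in LBC. Here the highest HBC array and the lowest LBC array both carried replicate number 3, and the groups overlapped. The log2 fold changes were -0.01 for Plin1 (95% interval -0.19 to 0.18) and -0.06 for Plin5 (95% interval -0.26 to 0.14).

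Cidec read 74.4, 61.7 and 70.7 in HBC and 78.9, 78.4 and 72.2 in LBC, and both group means lay within the dim range. It was the 1 member of the 10 whose cluster used for the test did so. The other Fabp3 cluster, given below, also lay within that range. Its log2 fold change was -0.13 (95% interval -0.30 to 0.05, limma, adjusted p = 0.35).

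For 7 of the 8 members not called, both ends of the 95% interval stayed inside the 1.5-fold threshold with the offset of 16. Fabp4 was the 1 whose interval reached beyond it. The interval of Fabp7 ended at -0.57, close to the threshold, which is 0.58 in size on the log2 scale. With an offset of 1 the log2 fold change of Fabp7 was -0.45 (standard error 0.094). Plin4 and Plin5 are next to each other on chromosome 17 and Plin3 lies on the same chromosome, but their changes were unequal in size. Per array, log2(intensity + 16) of Plin4 minus that of Plin5 ran from 2.20 to 2.54 in HBC and from 0.84 to 1.43 in LBC, which puts the change of Plin4 1.31 above that of Plin5 (standard error 0.13). The same difference against Plin3 was 1.06 (standard error 0.12). These standard errors combine those of both genes as if independent, and were not taken from the per-array differences. Neither pair overlapped between the groups, and the two-sided exact permutation test gave p = 0.10 for each, the smallest that 3 arrays against 3 allow, also after adjustment over the 3 pairs compared in this way. The pairs were chosen after their values had been seen.

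**Figure D2:**
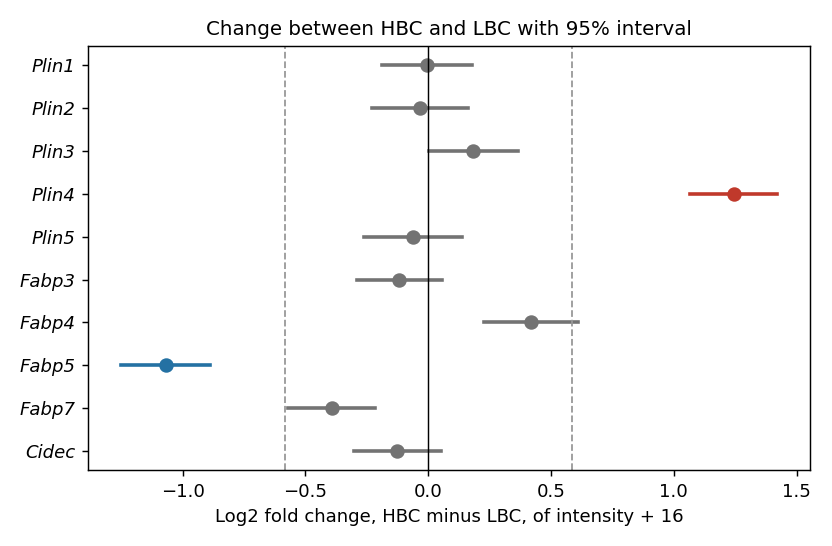
Change of the 10 members on the log2(intensity + 16) scale, HBC minus LBC, with lines for the 95% interval from limma over 3 arrays per group and dashed lines at the 1.5-fold threshold. Plin4 (red, 1.24) was called higher, Fabp5 (blue, -1.07) was called lower, and the grey members were not called.

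Among the fatty acid binding proteins, Fabp5 fell. Its brighter cluster, used for the test, read 482, 459.7 and 444 on the HBC arrays and 907, 959.7 and 1101 on the LBC arrays. The lowest LBC array was far above the highest HBC array. The HBC mean was 462 ± 19.0 (SD, n = 3) and the LBC mean 989 ± 100.2 (SD, n = 3), so that the intensity in LBC was 2.14 times that in HBC. The log2 fold change was -1.07 (standard error 0.089, 95% interval -1.25 to -0.89, limma, adjusted p = 7.4e-11), the 35th lowest of the 19938 genes.

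The other Fabp5 cluster gave nearly the same picture. It read 433.5, 425 and 403 in HBC and 854, 887 and 1009 in LBC, with a log2 fold change of -1.09 (limma fitted over all clusters of the array, adjusted p = 7.5e-05). The clusters are not independent readings. The annotation gives them the same RefSeq transcripts, and the 20 annotated clusters nearest in identifier lie on chromosome 9 for 19 of 20 around the brighter cluster, and on chromosome 3, where Fabp5 lies, for 16 of 20 around the other. Whether the brighter cluster also reads a copy of the sequence elsewhere in the genome was not tested.

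Fabp4, the adipocyte carrier, differed the other way and by less. It read 2273, 2398.5 and 2417 in HBC and 1606, 1660.4 and 2057 in LBC. The groups did not overlap, and LBC replicate 3 lay closest to HBC. The means were 2363 ± 78.1 (SD, n = 3) and 1774 ± 246 (SD, n = 3), a ratio of 1.33. The log2 fold change was 0.42 (standard error 0.093, 95% interval 0.23 to 0.61, limma, adjusted p = 0.0013), so that Fabp4 passed on p and was not called because of the fold. Without LBC replicate 3 the log2 fold change was 0.53.

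Fabp7, the brain-type carrier, read 98.8, 87.4 and 89.5 in HBC and 117, 123 and 137 in LBC. The groups did not overlap, and the HBC arrays lay just above the dim range. The log2 fold change was -0.39 (standard error 0.087, 95% interval -0.57 to -0.21, limma, adjusted p = 0.0013), which also passed on p and missed the fold.

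Fabp3, the heart-type carrier, read 110.4, 97.9 and 105 in HBC and 115, 110.5 and 118 in LBC. The lowest LBC array lay just above the highest HBC array, so the groups touched without overlapping. The log2 fold change was -0.12 (95% interval -0.29 to 0.05, limma, adjusted p = 0.36). The other Fabp3 cluster, read within the dim range at 50.8 to 56.2 in HBC and 56.4 to 61.1 in LBC, gave -0.13. The brighter cluster has neighbours in identifier on chromosome 10 for 20 of 20, whereas Fabp3 and the neighbours of the other cluster (19 of 20) lie on chromosome 4. Whether the cluster used lies at the gene itself was not tested.

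Fabp4 and Fabp5 share a stretch of chromosome 3 with other carriers. In the RefSeq annotation of GRCm38.p6 the protein-coding genes follow each other as Fabp5, Pmp2, Fabp9, Fabp4 and Fabp12. Pmp2, the carrier of peripheral myelin, read 21.1 in HBC and 27.3 in LBC, Fabp9, the carrier of testis, 28.0 and 33.1, and Fabp12 48.0 and 45.6, all within the dim range and not called. Of this row of carriers, Fabp4 and Fabp5 alone gave signal above that range, with log2 fold changes of opposite sign. Per array, log2(intensity + 16) of Fabp4 minus that of Fabp5 ran from 2.20 to 2.40 in HBC and from 0.78 to 0.89 in LBC. That is a shift of 1.49, with a standard error of 0.13 that combines those of both genes as if independent. The two-sided exact permutation test gave p = 0.10, the smallest possible with 3 arrays per group. Outside the row on the Fabp5 side, Pag1, Zfp704 and Zbtb10, from the nearest outward, had log2 fold changes of -0.16, -0.16 and -0.51. On the Fabp12 side, Impa1 and then Slc10a5 had -0.31 and -0.06. None of these was called.

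The stretch before the start of the gene is shown for Plin4, the perilipin called, for Plin5, its neighbour on the chromosome, and for Fabp7, to let a reader compare a called member with members that were not. Plin5 and Fabp7 both hold the element marked below, while Plin1, Plin3, Fabp3 and Cidec, also not called, lack it as Plin4 does. RefSeq promoters of GRCm38.p6 covered 8 of the 10 members with 10 starts. The promoter table has no entry for Fabp4 or Fabp5. Each line gives the 250 bases before the start, 5′ to 3′ on the strand of the gene. Capitals mark AGGTCA or its reverse complement TGACCT, the core element read by PPAR and other nuclear receptors. The places are chr17:56109783-56110032 on the minus strand for Plin4, chr17:56117549-56117798 on the minus strand for the outer start of Plin5, and chr10:57784673-57784922 on the plus strand for Fabp7.
Plin4: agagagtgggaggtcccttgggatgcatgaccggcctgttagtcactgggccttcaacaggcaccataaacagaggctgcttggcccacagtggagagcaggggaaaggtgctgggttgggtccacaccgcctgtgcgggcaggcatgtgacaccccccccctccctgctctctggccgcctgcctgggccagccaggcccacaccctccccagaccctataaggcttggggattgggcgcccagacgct
Plin5: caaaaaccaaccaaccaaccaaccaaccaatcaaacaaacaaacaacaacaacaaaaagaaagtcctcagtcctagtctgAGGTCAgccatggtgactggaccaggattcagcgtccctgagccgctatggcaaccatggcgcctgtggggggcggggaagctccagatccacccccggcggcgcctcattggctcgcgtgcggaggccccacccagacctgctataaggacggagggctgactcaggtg
Fabp7: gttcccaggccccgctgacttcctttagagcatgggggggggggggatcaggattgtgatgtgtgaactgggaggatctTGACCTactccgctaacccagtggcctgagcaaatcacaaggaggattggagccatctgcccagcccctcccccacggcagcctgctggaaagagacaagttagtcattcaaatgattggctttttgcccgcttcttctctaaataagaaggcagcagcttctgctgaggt

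Both strands were searched in 300 bases per start, 250 before it and 50 after it. AGGTCA was found in 3 of the 8 members with a promoter (Plin2, Plin5 and Fabp7). It was found in 16.3% of all 32851 promoters, a share of starts and not of genes. The Plin5 match begins 170 bases before the start and reads along the gene, and the Fabp7 match begins 171 bases before it on the opposite strand. A further Plin5 match lies after the inner start. A direct repeat of AGGTCA spaced by any 1 base, the arrangement bound by PPAR with RXR, was found in no member even with 1 mismatch allowed, and in 0.554% of all promoters. The palindrome TTGCGCAA, bound by C/EBP factors, and TATAAA, the TATA box, were found in no member and in 0.183% and 13.6% of all promoters. The direct repeat contains AGGTCA, so exact matches of the former are counted under both. Absence of these letters from so short a window says nothing of more distant elements.

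**Figure D3:**
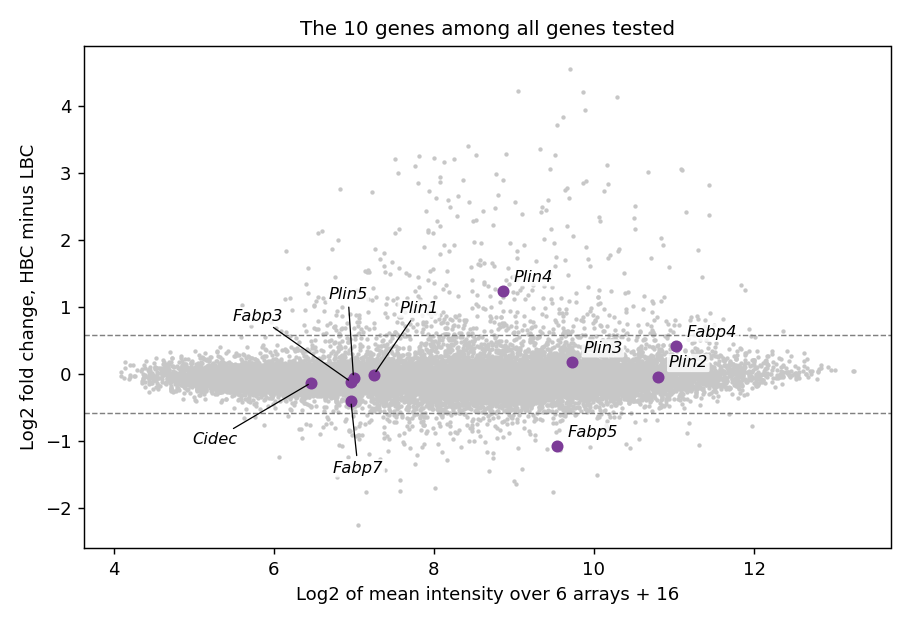
Change on the log2(intensity + 16) scale, HBC minus LBC, of 19938 genes (grey) against the log2 of their mean intensity over 6 arrays + 16, with the 10 members in purple and dashed lines at the 1.5-fold threshold. Plin4 and Fabp5 lie outside the dashed lines, and Cidec is the dimmest member by the clusters used for the test.

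Other genes that act on lipid droplets, or that feed them, were mostly not called either. The counts of each list are read beside 3.67% of all genes called, 2.54% higher and 1.13% lower. Of 27 other lipid droplet proteins and lipases measured, HBC showed 2 higher genes and no lower gene, and 25 were not called. The median log2 fold change of the 27 was 0.03. The 2 were Bscl2, which encodes seipin, a protein of droplet formation (860.1 ± 64.3 in HBC and 462 ± 41.9 in LBC, SD, n = 3, log2 fold change of 0.87), and Rnf213, a large ubiquitin ligase found on droplets that is also induced by interferon (3914 ± 383 and 1074 ± 47.3, log2 fold change of 1.85). The lipase genes Pnpla2 and Lipe, whose products break down stored triglyceride under the control of perilipins, had log2 fold changes of -0.17 and -0.06 and were not called. Abhd5, the coactivator that Plin1 holds back, had 0.29, the lysosomal lipase Lipa 0.38, and the droplet protein Cideb, a relative of Cidec, 0.32. Cav1 had 0.34 and Lpcat1 -0.34, and neither was called. The other relative, Cidea, lay within the dim range at 37.1 in HBC and 46.1 in LBC.

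Fatty acid uptake and activation showed 1 called gene among 20 measured, and a median log2 fold change of -0.01. It was Lpl, the lipase that frees fatty acids from lipoproteins, at 1961 ± 59.7 in HBC and 537 ± 38.9 in LBC (SD, n = 3), with a log2 fold change of 1.84 (limma, adjusted p = 7.5e-17). The fatty acid translocase Cd36 lay within the dim range at 32.7 and 33.1. The transporter Slc27a4 had a log2 fold change of 0.35, and the activating enzymes Acsl4 and Acsl5 had -0.02 and 0.01. Elovl6 and Slc27a2 each had -0.24 and were not called, and Slc27a2 lay within the dim range in both groups.

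Relatives of the fatty acid binding proteins in the same protein superfamily included 1 called gene in each direction. Of 10 measured, Crabp1 was lower and Crabp2 higher, both carriers of retinoic acid, and 8 were not called, 6 of these within the dim range. The HBC mean of Crabp1 was 1639.5 ± 48.2 (SD, n = 3), and its LBC mean was 3424 ± 178 (SD, n = 3), a log2 fold change of -1.05 (limma, adjusted p = 3.3e-11). Crabp2 read 208 ± 2.49 and 133 ± 15.7 (SD, n = 3), a log2 fold change of 0.60. Crabp2 is known to carry retinoic acid to the retinoic acid receptor, and Fabp5 to carry it to PPARδ. Ppard itself was not called, with a log2 fold change of 0.10. Rbp2 read 62.5 in HBC, within the dim range, and 87.3 in LBC, a log2 fold change of -0.39 that was not called. The median of the 10 was -0.17.

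**Figure D4:**
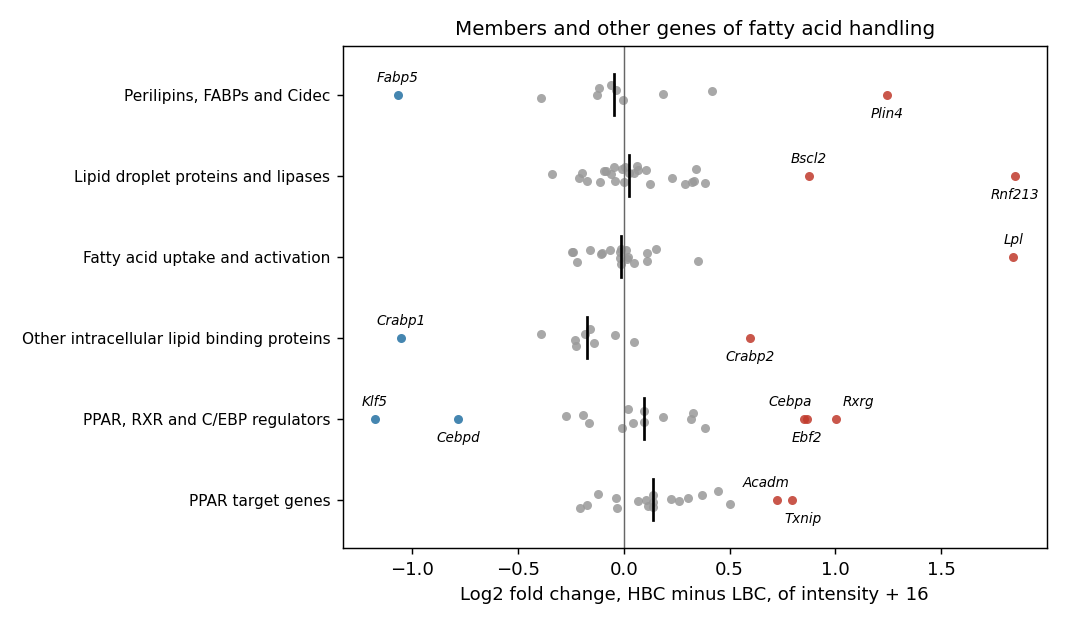
Change on the log2(intensity + 16) scale, HBC minus LBC, of the 10 members and of the measured genes of 5 lists, with called genes named in red (higher) or blue (lower), other genes in grey and black bars at the median of each list. Most genes lie near 0 in each row, with Plin4 and Fabp5 at the ends of the first row.

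Of 17 regulators of the PPAR, RXR and C/EBP group, 3 rose, 2 fell and 12 did not pass the call, at a median log2 fold change of 0.10. The share over all genes was 2.54% higher and 1.13% lower. Cebpa, a C/EBP factor of terminal adipocyte differentiation, read 233 ± 8.79 in HBC and 122 ± 7.90 in LBC (SD, n = 3, log2 fold change of 0.85). The early adipogenic factor Ebf2 rose by 0.87 on the log2 scale. Rxrg, a partner of PPAR, was called higher, at 139 in HBC and 61.2 in LBC, the latter within the dim range. Cebpd and Klf5, which act early in differentiation, fell by 0.78 and 1.18. Pparg read 1707 ± 7.94 and 1360 ± 130.3 (SD, n = 3), a log2 fold change of 0.33 that was not called.

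Of 19 other PPAR target genes, 2 rose and 17 were not called, and the median log2 fold change was 0.14. Acadm, an enzyme of fatty acid oxidation, rose by 0.73 and Txnip, an inhibitor of thioredoxin, by 0.80. Acot2, a mitochondrial thioesterase, had a log2 fold change of 0.50, the glycerol channel Aqp7 0.45 and the lipase inhibitor Angptl4 0.14, and none of these was called.

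Markers of other cells that express the members are given beside them. Their counts stand beside 2.54% of all genes called higher and 1.13% called lower. Mature adipocytes express Plin1, Plin4, Fabp4 and Cidec. Of 13 markers of these cells measured, 3 were higher (Lpl, Trarg1 and Cebpa) and 10 were not called. The median log2 fold change of the 13 was -0.01. Their summed intensity was 5257 to 5354 in HBC and 3143 to 3397 in LBC. Adipoq and Lep did not leave the dim range, and Retn, given above, was above it in both groups. Lpl and Pparg made up most of these sums, and they, Cebpa, Lipe, Pnpla2, Cd36 and Pck1 stand in the lists above as well. Macrophages and endothelial cells express Fabp4 and Fabp5. None of 14 macrophage markers and none of 12 endothelial markers was called. Their summed intensities were 1133 to 1194 and 989 to 1124 in HBC and 1276 to 1355 and 1045 to 1205 in LBC, so that the macrophage sums did not overlap between the groups and the endothelial sums did. Lyz2, Adgre1, Pecam1, Cdh5 and Kdr were within the dim range. Other markers were brighter: 7 of the 14 macrophage and 5 of the 12 endothelial markers exceeded that range in at least 1 group. One of these was the macrophage marker Cd68, whose mean intensity was 174 for HBC and 188 for LBC. The monocyte and macrophage receptor gene Cd14 read 107 in HBC and 155 in LBC, a log2 fold change of -0.48 that passed on p without being called (limma, adjusted p = 8.9e-05). Retn and Cd14 are named after their values were seen. Schwann and neural cells express Fabp7. Of 8 markers of these cells, Nes was called lower, at 74.8 in HBC, within the dim range, and 162 in LBC, and 7 were not called, with sums of 1363 to 1412 in HBC and 1560.2 to 1661 in LBC. Of 10 muscle markers none was called, at 1891 to 2087 in HBC and 1964 to 2174 in LBC, and of 6 mesothelial markers Msln was called lower, at 72.6 in HBC, again within the dim range, and 187 in LBC, with sums of 901 to 931 and 932 to 982. Between the groups the mature adipocyte, macrophage, neural and mesothelial sums did not overlap, as held for 35.2% of all genes taken singly. The part of the mature adipocyte, macrophage, neural and mesothelial genes in the results for the members was not tested.

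The genes whose values over the 6 arrays were most like those of Plin4, by Pearson's r on log2(intensity + 16) among 12710 genes with a mean intensity above 100, were Crip1, Ckb and Ank1, each with r = 0.999. They read 1362, 738 and 414 in HBC and 546, 257 and 254 in LBC. Those most like Fabp5 were Cnn1, Pcdh10 and Zfp52, with r of 1.00, 0.999 and 0.999, at 306, 188 and 439 in HBC and 546, 382 and 686 in LBC. All 6 were called in the direction of their member. With 6 arrays in 2 groups, such an r mostly reflects the difference between the groups, and it is given as a description.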

How the data were processed

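Total RNA of HBC and LBC was labelled and hybridized to Affymetrix mouse gene arrays. The authors made the deposited intensities, which are linear, with the Expression Console software of Affymetrix, a name taken from the submitters' processing notes. Neither the version nor how probes were summarised and arrays normalized is given in the sources used here. A newer mouse gene array is named in the methods than the one whose annotation the row identifiers match. Scanner files were not used here, and the number of arrays limits the precision.

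The annotation gave 1 symbol to 21789 of 35556 transcript clusters, several to 1621 and none to 12146. For the 999 genes with several clusters, the one of highest mean intensity was used. By gene identifier, 19856 of the 19938 genes were found in RefSeq (GRCm38.p6). That table served for names, chromosomes and neighbours. The coordinates of the promoters are its own.

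Since the deposited intensities were linear, and not on the log2 scale the test was designed for, log2(intensity + 16) was used. The comparison of HBC with LBC used lmFit and eBayes of limma 3.58.1 under R 4.3.3, two-sided and with no replicate block, with Benjamini-Hochberg adjustment over all 19938 genes. The prior had 24.9 degrees of freedom against 4 residual ones, so very small adjusted p-values lean on the variance shared between genes. The script was tested on simulated data. The members, gene lists, tests and offset were chosen with earlier results of these data known. Named are all members with their clusters, the called genes and up to 4 of the largest changes of each list, defining markers, and the 3 genes most like each called member; others are named for their role.

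Alternatives were 3 scalings, offsets of 1 and 50, the intensity filter of the methods (mean above 100 in both groups) and one asking for it in at least 1 group, the methods' t-test, a trended and robust prior, other uses of the clusters, other fold thresholds, a replicate block and leaving out each array. Replicate numbers were not treated as pairs.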

Additional observations from a re-analysis of the deposited data

How the results depend on the processing

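Plin4 and Fabp5 were the 2 members called under 19 of 20 other settings, and in the remaining one, without a fold threshold, 4 members were called. Plin4 ran from 1.15 to 1.33 on the log2 scale over those 20 settings, with adjusted p of at most 0.0070, and Fabp5 from -1.13 to -0.99, with adjusted p of at most 0.014; both highest values came from the methods' t-test, which gave Fabp4 an adjusted p of 0.13 and Fabp7 one of 0.068. Leaving out an array gave 1.18 to 1.30 for Plin4, -1.13 to -0.99 for Fabp5, 0.35 to 0.53 for Fabp4 and -0.44 to -0.34 for Fabp7. The direction of Fabp4, Fabp7, Fabp3, Plin3 and Cidec was the same in all of the 20 settings that gave a value, whereas Plin1, Plin2 and Plin5, none of them called, changed sign in 6, 3 and 2 of them. The filter of a mean above 100 in both groups left 8 members, without Fabp7 and Cidec, and that in at least 1 group left 9. The replicate block left 2 members and 732 genes called. Replicate numbers did not pair the arrays, since the deviations of same-numbered arrays from their group means correlated at -0.096, -0.24 and -0.50.

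Over all genes, 732 were called; leaving out an array gave 710 to 784, and without a fold threshold there were 3655, and at a fold above 2 there were 280. In settings added after the data were seen, the absence of a fold threshold gave 3146 genes and 4 members after median centring, 6032 and 5 after quantile normalization, and 5639 and 5 after cyclic loess normalization, the fifth member being Plin3. Without the fold threshold 1381 genes were higher and 2274 lower, against 1622 and 1524 after median centring, 2582 and 3450 after quantile normalization, and 3091 and 2548 after cyclic loess normalization, and the cause was not tested. Dim signal limits Cidec, Fabp7, Fabp3, Plin1 and Plin5.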
